A study of Mus musculus with 19 samples.

Results

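A set of 10 genes of the oxidative stress response governed by NRF2 was followed through culture: Nfe2l2, Sqstm1, Hmox1, Nqo1, Gclm, Gclc, Txnrd1, Srxn1, Prdx1 and Osgin1. They were found by matching the Ensembl identifiers of the count table to mouse gene symbols, and all 10 were among the 55487 identifiers of the table and among the 15138 genes that passed the filter on low counts.

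The 19 bulk RNASeq libraries came from hepatic stellate cells (HSCs), the vitamin A storing fibroblast-like cells of the liver, which were isolated by the autofluorescence of their vitamin A under ultraviolet light from healthy male Balb/c mice, 23 to 24 weeks old. Cells were either lysed uncultured (0 h, 2 libraries) or kept on collagen-coated plastic in medium with 10% serum for 3, 6, 12, 18 or 96 h (3 libraries each) or 24 h (2 libraries), with fresh medium at 3 h and 24 h. The study describes 3 independent repeats at each time, and each library joined 2 technical repeats. The labels number the libraries M1, M2 and M3, and M1 and M3 carry the same isolation label while M2 carries another; they do not say whether M1 and M3 came from different animals, so p-values measure the spread between these libraries, which may be partly technical.

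NRF2, the protein made from Nfe2l2, is a transcription factor that is normally bound by KEAP1 in the cytoplasm and degraded. Oxidants and electrophiles modify KEAP1, and the autophagy receptor p62, made from Sqstm1, competes for it, after which NRF2 accumulates, pairs with small MAF proteins and binds antioxidant response elements near genes for heme breakdown, glutathione and thioredoxin enzymes. BACH1 occupies the same elements as a repressor, which heme displaces, and in the liver the pathway is best known from hepatocytes, where it drives detoxification of drugs.

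The core letters of an antioxidant response element, TGACNNNGC, were searched on both strands of the RefSeq promoter windows (GRCm38.p6, 250 bases before to 50 after each annotated start), because NRF2 binds such elements. Windows were matched for 8 of the 10 genes, all but Hmox1 and Gclc, and 5 of the 8 held the core in at least 1 window, as did 14% of all 27025 genes with a window and 12.4% of all 32851 windows. The matches, printed 5′ to 3′ on the strand that carries the motif with the core in capitals, were:
Nfe2l2, chr2:75704885-75704913, - strand: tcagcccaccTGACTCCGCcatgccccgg
Gclm, chr3:122245413-122245441, - strand: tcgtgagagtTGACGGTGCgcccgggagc
Txnrd1, chr10:82859104-82859132, - strand: cgtgtcagaaTGACAAAGCaaaaatccag
Srxn1, chr2:152105542-152105570, - strand: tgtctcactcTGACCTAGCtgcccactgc
Prdx1, chr4:116685456-116685484, - strand: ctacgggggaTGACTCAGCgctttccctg
On the strand of the gene the first motif base lay 240 bases before the start in Nfe2l2, 134 in Gclm, 92 in the second of 3 windows of Txnrd1 and 133 in Prdx1, while in Srxn1 it was base 29 of the transcript. The windows of Nqo1, Osgin1 and Sqstm1 did not hold these letters, which says nothing of elements elsewhere.

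The related AP-1 motif TGACTCA, which the 9-letter core contains when its open bases are TCA, was found in 3 of the 8 genes, in 5.95% of all genes with a window and in 5.2% of all windows. It is shown for Osgin1 and Srxn1, whose mean levels were highest at 3 h and 12 h. The Osgin1 match, with the motif in capitals, and the whole 250 bases before the start of Srxn1, with both of its matches in capitals as they read on the gene's strand (TGAGTCA, the reverse complement), were:
Osgin1, chr8:119437040-119437066, + strand: gggcccctgcTGACTCAcgcttatgaa
Srxn1, chr2:152105274-152105523, + strand: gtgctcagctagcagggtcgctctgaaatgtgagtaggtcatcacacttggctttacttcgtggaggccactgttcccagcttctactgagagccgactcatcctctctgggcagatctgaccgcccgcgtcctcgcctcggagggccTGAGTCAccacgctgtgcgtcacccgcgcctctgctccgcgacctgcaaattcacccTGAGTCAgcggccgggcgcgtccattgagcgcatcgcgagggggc
In Prdx1 the motif occurred 2 times, once 237 bases before the start and once inside the antioxidant response element core printed above. A match of letters is a description and was not measured as a bound site.

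Depth lay between 2073171 counts (0 h M3) and 7690892 counts (12 h M3), and 3 counts, taken as the floor of detection, corresponded to 0.39 to 1.45 CPM. Levels are CPM, counts brought to a common library size and scaled by TMM, a method that sets the library sizes on the assumption that most genes do not change. Differences were tested with edgeR's quasi-likelihood F test in 1 fit of all 19 libraries, and a gene was called at a Benjamini-Hochberg adjusted p under 0.1 over all 15138 genes with a fold change over 2. All comparisons against 0 h share the same 2 uncultured libraries. Between 22 and 613 tested genes per library stood at 0 counts where every other library of that time had at least 50, with 613 in 0 h M3, so single zeros among the 10 genes are given as such. At 0 h and 24 h there was only 1 other library, so the counts of these times are not on the scale of the rest.

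Summed levels of cell type markers moved with time as well. The stellate list was detected with 11 to 12 of 12 markers at 0 h, at a summed level of 30963 to 35886 CPM, which was 19724 to 21310 CPM at 6 h, 2702 to 3165 CPM at 18 h and 2737 to 3147 CPM at 96 h, and Gfap stood at 0 counts in every library from 6 h on. The 10 hepatocyte markers summed to 4064 to 8326 CPM at 0 h, 531 to 1480 CPM at 3 h and 137 to 425 CPM at 6 h. The 10 Kupffer cell and macrophage markers gave 443 to 482 CPM at 0 h, 249 to 456 CPM at 3 h and 37.7 to 45.9 CPM at 6 h. Of these, Timd4, Adgre1 and C1qb stood at 0 from 6 h on, and Marco in every library. Csf1r had counts in all 19 libraries and Lyz2 in 17. The 9 sinusoidal endothelial markers gave 705 to 1045 CPM at 0 h, 908 to 2895 CPM at 3 h and 8.76 to 215 CPM at 96 h. The 5 cholangiocyte markers never summed to more than 19.1 CPM, nor did the 8 lymphocyte and neutrophil markers to more than 17.7 CPM. Krt19, Krt7, Cd3d, Cd79a, Ms4a1, Nkg7, S100a8 and S100a9 had 0 counts in every library, and Cd3e from 6 h on. Spp1 had counts in 15 libraries, Sox9 in 9, Ptprc in 6 and Epcam in 1. Mitochondrial transcripts took 12.7 to 13.98% of counts at 0 h and 3.62 to 8.14% later. The part of these changes in the results below was not tested, and in bulk RNA fewer cells of a type and less RNA per cell cannot be told apart.

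**Figure D1:**
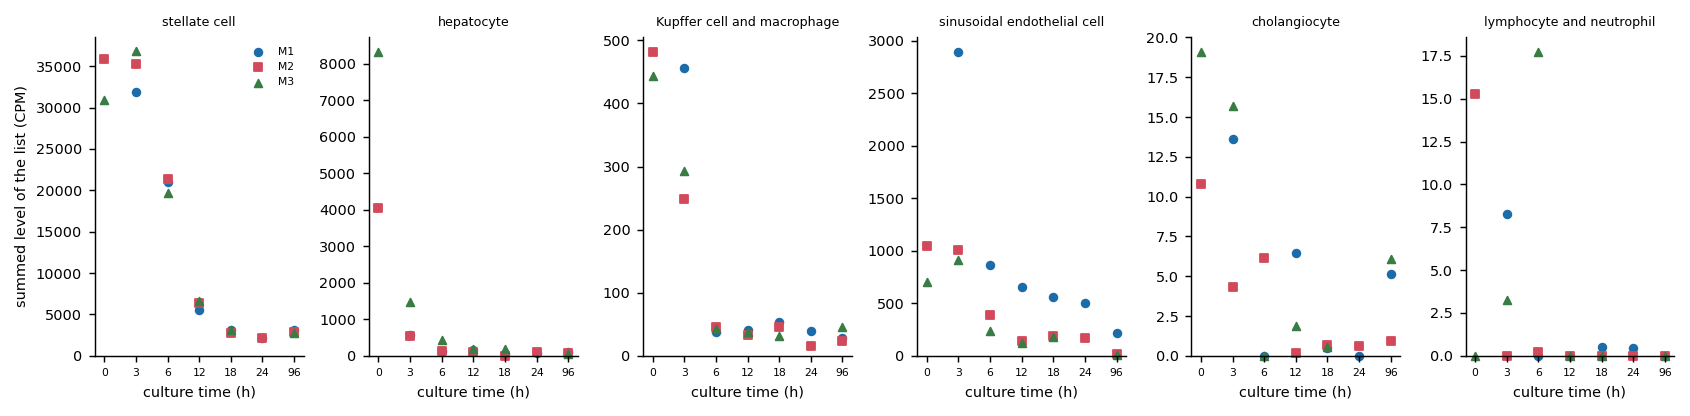
Summed level (CPM, linear axes from 0) of 6 lists of cell type markers in each of the 19 libraries against culture time (h, evenly spaced positions); symbols give the library number M1, M2 or M3. The hepatocyte, Kupffer and stellate sums are all lower from 6 h on than at 0 h, and the cholangiocyte and lymphocyte sums stay at or under 19.1 CPM.

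After 3 h of culture 5 of the 10 were called higher than uncultured, where 4.19% of all genes tested were. The count was 7 after 6 h (6.98% of all genes) and 6 after both 12 h (8.60%) and 18 h (7.64%). It was then 5 after 24 h (5.65%), and 3 remained after 96 h (5.83%). None was called lower than at 0 h at any time by edgeR; at an unadjusted p under 0.05, 1 gene was lower, Osgin1 at 96 h, which DESeq2 called. The median log2 fold change of the 10 genes was 1.84 after 3 h, 2.94 after 6 h, 3.03 after 12 h and 0.57 after 96 h, while the median of all genes tested was 0 at the first 3 of these times and 0.07 at 96 h. Over all 7 times together, 8 of the 10 genes varied at an adjusted p under 0.1, against 27.4% of all genes, and the exceptions were Nqo1 and Prdx1. Osgin1 had its highest mean at 3 h. For Hmox1, Sqstm1 and Nfe2l2 the highest mean was at 6 h. For Gclm, Gclc, Txnrd1 and Srxn1 it was at 12 h, and for Nqo1 and Prdx1 at 96 h. This order of means was not tested, and none of the 10 genes was called between 6 and 12 h.

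**Figure D2:**
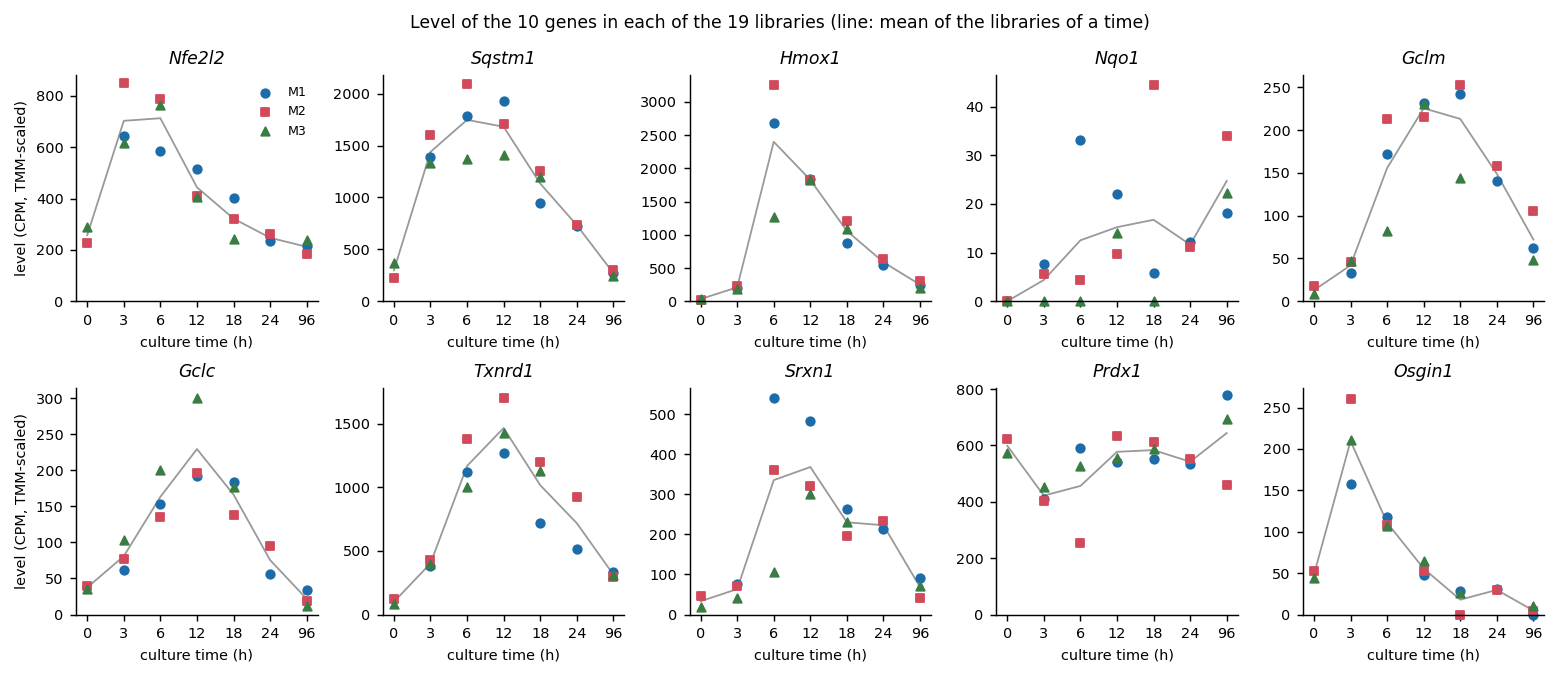
Level (CPM, TMM-scaled, linear axes from 0) of the 10 genes in each of the 19 libraries against culture time (h, evenly spaced positions); symbols give the library number and the grey line joins the means. Of the 10 genes, 8 have their highest mean between 3 and 12 h, with Osgin1 highest at 3 h and Gclm, Gclc, Txnrd1 and Srxn1 highest at 12 h, whereas Nqo1 is scattered and Prdx1 lies between 252 and 778 CPM at all times.

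Nfe2l2 (ENSMUSG00000015839, GRCm38 chr2:75675513-75704641, minus strand) encodes the transcription factor itself. Its level was 225 CPM in M2 and 289.7 CPM in M3 at 0 h, and 643, 849.7 and 616 CPM in M1, M2 and M3 at 3 h. At 6 h it was 586, 787 and 766 CPM, and at 12 h 517, 411 and 404 CPM. Every library from 3 to 12 h lay above both uncultured ones. Thereafter it was 402, 320.2 and 244 CPM at 18 h, 234 and 261 CPM (M1 and M2) at 24 h, and 213, 182 and 240.4 CPM at 96 h, where the libraries overlapped with 0 h at each time. Nfe2l2 rose by 1.45 on the log2 scale at 3 h (SE 0.24, adjusted p = 0.00168) and 1.47 at 6 h (SE 0.24, adjusted p = 0.000758). At 12 h the difference was 0.79 (SE 0.23, adjusted p = 0.0345), under the fold limit, and at 24 h it was -0.06 (95% interval -0.61 to 0.49). From 3 to 6 h the log2 difference was 0.02 (95% interval -0.43 to 0.47).

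Sqstm1 (ENSMUSG00000015837, chr11:50199366-50210827, minus strand) encodes p62, which binds ubiquitinated cargo and KEAP1 and is itself an NRF2 target. It stood at 222 CPM in M2 and 373 CPM in M3 at 0 h and at 1386, 1602 and 1329 CPM in M1 to M3 at 3 h. The rise at 3 h was 2.28 (log2, SE 0.25, adjusted p = 3.12e-05), and no library overlapped. Levels at 6 h were 1782, 2091 and 1372 CPM and at 12 h 1929.8, 1708 and 1407 CPM, so the libraries of 3, 6 and 12 h overlapped. Sqstm1 was still called at 18 h (948 to 1259.9 CPM) and at 24 h (729 and 738 CPM), by 1.93 and 1.30 on the log2 scale. At 96 h it was 277, 298 and 239 CPM, overlapping with 0 h (log2 difference -0.13, 95% interval -0.62 to 0.36). Without the 0 h M2 library the 24 h difference was 0.95, under the fold limit. Sqstm1 shares exonic sequence with Mrnip on the opposite strand, which had 0 counts in all 19 libraries.

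Hmox1 (ENSMUSG00000005413, chr8:75093621-75100589, plus strand) encodes heme oxygenase 1, the stress-inducible enzyme that opens heme to biliverdin, iron and carbon monoxide. At 0 h it held 25.6 CPM in M2 and 40.2 CPM in M3. At 3 h the libraries held 204, 233 and 189.9 CPM (M1, M2, M3) and at 6 h 2676, 3250.3 and 1272 CPM. All libraries of 6 h lay above all of 3 h, and among them M3 was the lowest. At 12 h the 3 libraries lay close together, at 1839, 1817 and 1820.4 CPM, and then came 881, 1200.4 and 1092 CPM at 18 h, 542 and 633 CPM (M1, M2) at 24 h and 247, 302 and 198 CPM at 96 h. Against 0 h, Hmox1 was 6.41-fold higher at 3 h and 73.5-fold at 6 h (log2 6.20, SE 0.41, adjusted p = 2.04e-07). It remained 7.63-fold higher at 96 h (log2 2.93, SE 0.35, adjusted p = 3.47e-05).

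The step from 3 to 6 h was the widest for Hmox1, 3.52 on the log2 scale (SE 0.29, adjusted p = 3.94e-05). In the same comparison Srxn1 rose by 2.40, Gclm by 1.89 and Txnrd1 by 1.54, so that 4 of the 10 genes were called higher, against 2.50% of all genes. In 6 h against 3 h the difference of Gclc was 1.01 (SE 0.35, adjusted p = 0.153), of Sqstm1 0.28 (SE 0.20) and of Nfe2l2 0.02 (SE 0.20), none of them called. Gclc lay at the fold limit and was called without 96 h M1 (adjusted p = 0.0863) or 96 h M3 (0.0944). Counted against Nfe2l2 in the same library, Hmox1 gave 0.114 and 0.139 counts per Nfe2l2 count at 0 h, 0.275 to 0.317 at 3 h, 1.66 to 4.57 at 6 h and 0.823 to 1.66 at 96 h. These ratios did not overlap between 0, 3 and 6 h. The libraries hold 1 read per transcript end, so such ratios are of transcripts and were not scaled by length.

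Gclm and Gclc encode the modifier and the catalytic subunit of glutamate cysteine ligase, the rate-limiting enzyme of glutathione synthesis. Gclm (ENSMUSG00000028124, chr3:122245557-122270732, plus strand) held 17.8 CPM in M2 and 8.03 CPM in M3 at 0 h and 32.8, 46.3 and 46.6 CPM in M1 to M3 at 3 h. It went on to 172, 213 and 82.6 CPM at 6 h and to 231, 215 and 230.2 CPM at 12 h. At 18 h the libraries were at 242, 253 and 144 CPM and at 24 h at 140.3 and 157 CPM, all above every library of 0 and 3 h. At 96 h Gclm still stood at 62.5, 106 and 47.8 CPM, above both uncultured libraries. The fold change was 17.1 at 12 h (log2 4.10, SE 0.51, adjusted p = 3.44e-05) and 5.47 at 96 h (log2 2.45, SE 0.47, adjusted p = 0.00258). The call at 3 h (log2 1.67, SE 0.45, adjusted p = 0.0475) was lost without 0 h M3, with an adjusted p of 0.383, and without 3 h M2, with 0.108.

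Gclc (ENSMUSG00000032350, chr9:77754535-77794485, plus strand) started higher, at 39.9 CPM in M2 and 35.1 CPM in M3. It was at 61.7, 77.2 and 104 CPM (M1 to M3) at 3 h, 153, 136 and 200.4 CPM at 6 h, and 192, 197 and 299.96 CPM at 12 h. Its libraries at 18 h, with 184, 138 and 177 CPM, overlapped with those of 6 h. The values were 55.6 and 95.5 CPM (M1, M2) at 24 h and 34.7, 19.1 and 11.5 CPM at 96 h, below both uncultured libraries. Gclc was called higher at 6 h (log2 2.12, SE 0.43, adjusted p = 0.004), 12 h (2.61, SE 0.44) and 18 h (2.15, SE 0.43). The differences at 3 h (1.11, SE 0.41, adjusted p = 0.182), 24 h (1.01, SE 0.44, adjusted p = 0.218) and 96 h (-0.80, SE 0.40, adjusted p = 0.261) were not called, although no library overlapped with 0 h at any of the 3 times. Without 96 h M1 the last of these was called, at -1.30 with an adjusted p of 0.0492.

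The balance of the subunits differed between times. The number of Gclm counts per Gclc count was 0.229 and 0.447 at 0 h, 0.449 to 0.599 at 3 h, 0.412 to 1.57 at 6 h and 0.767 to 1.21 at 12 h. It was 0.816 to 1.83 at 18 h, 1.65 and 2.53 at 24 h and 1.80 to 5.56 at 96 h. All libraries of 24 and 96 h exceeded all of 0, 3, 6 and 12 h, with a mean ratio of 3.84 ± 1.90 (SD, n = 3) at 96 h against 0.338 ± 0.154 (SD, n = 2) at 0 h. All libraries of 3 and 12 h were also above both of 0 h, and the ratio was not tested. Gclm is less certain than Gclc as a count: its exons overlap those of Gm17494 on the opposite strand (14240 counts over all libraries, against 12825 for Gclm), and 1 annotated Gclm transcript holds a stretch of 287 bases that is 97.9% identical to Ppia (48365 counts). A transcript of Gm10123 (6786 counts) is 100% identical to a Gclm transcript over 244 bases. Whether the counting used strand is not given in the sources used here.

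**Figure D3:**
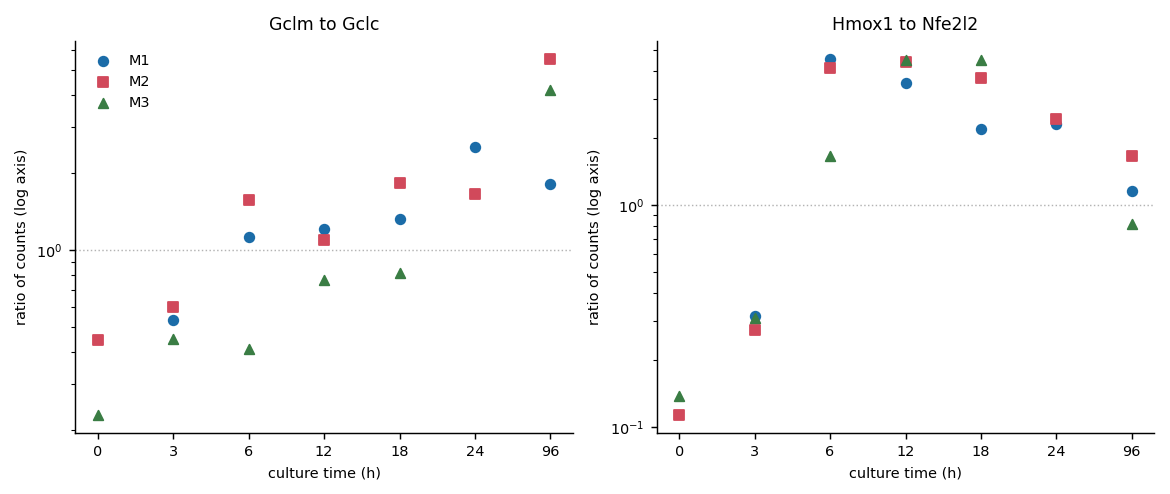
Ratio of counts (log axis) of Gclm to Gclc and of Hmox1 to Nfe2l2 in each of the 19 libraries against culture time (h, evenly spaced positions); symbols give the library number and the dotted line marks equal counts. The Gclm to Gclc ratio lies between 0.229 and 0.447 at 0 h and between 1.80 and 5.56 at 96 h, and the Hmox1 to Nfe2l2 ratio is 1.66 or more in every library at 6 and 12 h.

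Txnrd1 (ENSMUSG00000020250, chr10:82833951-82897712, plus strand) encodes the cytosolic thioredoxin reductase, which uses NADPH to keep thioredoxin reduced. Its level was 120.4 CPM in M2 and 79.3 CPM in M3 at 0 h, 383, 426 and 396 CPM in M1 to M3 at 3 h, and 1120.1, 1377 and 1006 CPM at 6 h. It was highest at 12 h, with 1269, 1701 and 1429 CPM, which overlapped with 6 h. At 18 h it was 722, 1201 and 1126 CPM, at 24 h 514 and 922 CPM (M1, M2), and at 96 h 335, 297 and 311 CPM. Every cultured library was above both uncultured ones. Txnrd1 was called at all 6 times, 4.01-fold at 3 h, 14.6-fold at 12 h (log2 3.87, SE 0.31, adjusted p = 5.83e-07) and 3.14-fold at 96 h (log2 1.65, SE 0.28, adjusted p = 0.000907).

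Srxn1 (ENSMUSG00000032802, chr2:152105516-152111376, plus strand) encodes sulfiredoxin, which repairs overoxidised peroxiredoxins. It held 47.1 CPM in M2 and 19.1 CPM in M3 at 0 h, and 77.3, 72.4 and 40.9 CPM in M1 to M3 at 3 h, where M3 lay below the uncultured M2. At 6 h the libraries held 539, 361 and 105 CPM, and at 12 h 482, 321 and 299.7 CPM. Later levels were 264, 195 and 231 CPM at 18 h, 212 and 233 CPM (M1, M2) at 24 h, and 92.1, 41.8 and 71.1 CPM at 96 h, overlapping with 0 h again. Srxn1 rose 10.0-fold at 6 h (log2 3.32, SE 0.61, adjusted p = 0.00191) and by 3.46 on the log2 scale at 12 h (SE 0.61). The difference was 0.92 (SE 0.55, adjusted p = 0.46) at 3 h and 1.03 (SE 0.55, adjusted p = 0.298) at 96 h. Without 0 h M3 its call at 24 h (log2 2.73, SE 0.62) was lost, with an adjusted p of 0.119.

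Prdx1 (ENSMUSG00000028691, chr4:116685544-116700822, plus strand) encodes a peroxiredoxin, an abundant peroxide-reducing enzyme that thioredoxin regenerates and sulfiredoxin repairs. It stood at 625 CPM in M2 and 573 CPM in M3 at 0 h and at 409, 404 and 453 CPM in M1 to M3 at 3 h. The lowest library was 6 h M2, at 252 CPM, beside 591 and 526 CPM in M1 and M3, and the highest 96 h M1, at 778 CPM, beside 461 and 693 CPM. From 12 to 24 h all 8 libraries lay between 533 and 635 CPM. Prdx1 was called in none of the comparisons by edgeR. At 3 h, as at 24 h, all its libraries lay below both of 0 h. The log2 difference from 0 h was -0.50 at 3 h (95% interval -1.10 to 0.09) and -0.14 at 24 h. At 6 h the log2 difference from 0 h was -0.39 (95% interval -0.98 to 0.20) and at 12 h -0.05 (95% interval -0.65 to 0.54). The transcripts of Gm21399 and Gm7204 are at least 95% identical to Prdx1 over 597 bases, with 204 and 71 counts beside 49927 for Prdx1. A shorter stretch of 101 bases is 95.05% identical to Sec23b, which had 6034 counts.

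Because sulfiredoxin repairs peroxiredoxins and thioredoxin reductase keeps their reductant thioredoxin reduced, the counts of Txnrd1 and Srxn1 were set against those of Prdx1 in the same library. Txnrd1 gave 0.138 and 0.193 counts per Prdx1 count at 0 h, 0.874 to 1.06 at 3 h, 1.90 to 5.46 at 6 h, 2.34 to 2.68 at 12 h and 0.431 to 0.645 at 96 h. For Srxn1 the ratio was 0.0333 and 0.0755 at 0 h, 0.200 to 1.43 at 6 h and 0.0906 to 0.118 at 96 h. Both ratios at 96 h were above those at 0 h in every library. They carry the errors of both genes and were not tested.

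Nqo1 (ENSMUSG00000003849, chr8:107388225-107403206, minus strand) encodes the NADPH quinone reductase that is often used as a readout of NRF2, yet its counts here were low. Both uncultured libraries held 0 counts, which by counting error alone allows up to 0.672 CPM in M2 and 1.45 CPM in M3 at the floor of 3 counts before TMM scaling. At 3 h the level was 7.63, 5.51 and 0 CPM in M1 to M3, at 6 h 33.2, 4.37 and 0 CPM, and at 18 h 5.85, 44.4 and 0 CPM. All libraries of 12 h (22.01, 9.67 and 14.01 CPM), 24 h (12.2 and 11.1 CPM) and 96 h (18.1, 33.9 and 22.2 CPM) had counts. The M3 zeros at 3, 6 and 18 h stood beside 22 to 253 counts in the other libraries of those times. Against the floor, averaged over both 0 h libraries, the mean level of Nqo1 was 3.88-fold higher at 3 h, 13.5-fold at 12 h and 21.9-fold at 96 h. The floor covers counting error only. In 0 h M3 613 tested genes, and in 0 h M2 211, stood at 0 where the other 0 h library had at least 50 counts. These folds are therefore not lower bounds. In the edgeR fit of all libraries it was not called at any time (adjusted p between 0.11 and 0.332), whereas DESeq2 called it against 0 h from 6 h (adjusted p = 0.0205) to 96 h (adjusted p = 0.00631). With edgeR it was called in fits of only the times compared at 12 h (adjusted p = 0.0415), 24 h (0.0904) and 96 h (0.0194), and after thinning to the smallest library at 12, 18 and 96 h (0.0798 to 0.0895). The call also depended on the M3 libraries with 0 counts: without the one of 3 h, 6 h or 18 h, edgeR called Nqo1 at 12, 18 and 96 h, with adjusted p between 0.0688 and 0.0968, and without 18 h M2 at 12 h alone (0.0982).

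Osgin1 (ENSMUSG00000074063, chr8:119434124-119446256, plus strand), an oxidative stress induced growth inhibitor, was at 52.2 CPM in M2 and 44.7 CPM in M3 at 0 h, 158, 261 and 210.4 CPM in M1 to M3 at 3 h and 117, 108 and 107 CPM at 6 h. Levels at 12 h (48.2, 53.1 and 65.1 CPM) overlapped with 0 h. At 18 h the libraries held 28.3, 0 and 25.5 CPM, at 24 h 30.5 and 29.1 CPM, and at 96 h 0, 4.23 and 10.1 CPM, all below both uncultured libraries. The 0 in 18 h M2 stood beside 116 and 137 counts in M1 and M3. None of the differences from 0 h was called by edgeR in the fit of all libraries: at 3 h the log2 difference was 2.11 (SE 1.24, adjusted p = 0.454) and at 96 h -3.30 (SE 1.20, adjusted p = 0.112). In fits of only the times compared it was called higher at 3 h (adjusted p = 0.0194) and at 6 h (log2 1.30, adjusted p = 0.0475). DESeq2 called it lower at 96 h (adjusted p = 0.0281), and so did edgeR with DESeq2 size factors (0.0943), without the filter on low counts (0.0836) and after thinning (0.0571). Without 18 h M2, the library at 0, edgeR called it lower at 96 h too (adjusted p = 0.0122), as it did without 96 h M3 (0.0911). Osgin1 was called lower at 96 h than at 6 h (log2 -4.49, SE 1.19, adjusted p = 0.0214).

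**Figure D4:**
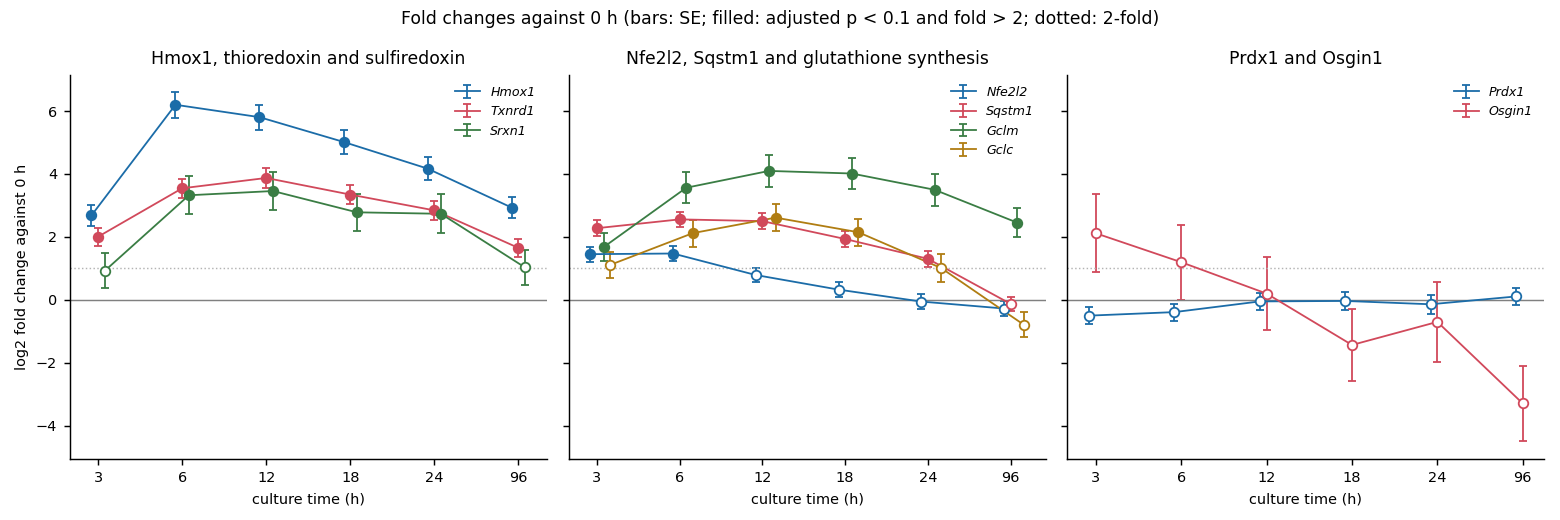
Log2 fold change against 0 h (y axis) at each culture time (h, x axis, evenly spaced positions) for 9 of the 10 genes, with bars for the SE of edgeR's quasi-likelihood fit; filled points passed an adjusted p of 0.1 and a fold change of 2, open points did not, and Nqo1 is left out because both uncultured libraries held 0 counts. Hmox1 peaks at 6.20 at 6 h and stays at 2.93 at 96 h, Nfe2l2 is past the limits at 3 and 6 h, and Prdx1 stays between -0.50 and 0.10.

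Between 6 and 24 h no step from one time to the next gave a call. From 6 to 12 h edgeR called 0 of the 10 genes in either direction, where it called 1.84% of all genes, and it also called 0 from 12 to 18 h (0.225%) and from 18 to 24 h (0.0396%). DESeq2 called 0 in each as well. At an unadjusted p under 0.05 edgeR gave 1, 4 and 3 genes in these steps, all lower at the later time. From 12 to 18 h these included Hmox1 (log2 -0.79, SE 0.27, adjusted p = 0.423) and Sqstm1 (log2 -0.57, SE 0.20, adjusted p = 0.446). For 7 of the 10 genes all libraries of 18 h were below all of 12 h. The share of all genes with such a separation, or with an unadjusted p under 0.05, is not given here. These counts are therefore not read as a shift of the 10 genes as a set. From 24 to 96 h, 4 genes were called lower, against 1.35% of all genes: Gclc (-1.81 on the log2 scale, SE 0.39), Sqstm1 (-1.43, SE 0.22), Hmox1 (-1.24, SE 0.29) and Txnrd1 (-1.19, SE 0.26). Without 24 h M2, which leaves 1 library at 24 h, Sqstm1 alone was called, while Hmox1 was at -1.14 (adjusted p = 0.334), Gclc at -1.37 (0.42) and Txnrd1 at -0.72 (0.619). The Hmox1 call was lost as well without 24 h M1 (-1.35, adjusted p = 0.102), 96 h M1 (-1.23, 0.112) or 96 h M3 (-1.10, 0.161). Srxn1 (-1.71, SE 0.52, adjusted p = 0.131) was not called by edgeR but was by DESeq2 (0.0482), and by edgeR without 6 h M1 (0.0971) or 6 h M3 (0.0343).

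Compared with 6 h, the 96 h libraries had lower calls for 8 of the 10 genes, all but Nqo1 and Prdx1, where 7.46% of all genes were called lower. Hmox1 was 9.63-fold lower (log2 -3.27, SE 0.29, adjusted p = 1.86e-06), Gclc 7.54-fold and Sqstm1 6.44-fold. The difference of Gclm was smaller, 2.16-fold (log2 -1.11, SE 0.37, adjusted p = 0.072), and its libraries overlapped, since 6 h M3 held 82.6 CPM and 96 h M2 106 CPM. Leaving out each of 6 h M1, 6 h M2, 96 h M1 or 96 h M3 lost the Gclm call, with adjusted p between 0.163 and 0.244. At 96 h, Hmox1, Gclm and Txnrd1 were still called higher than at 0 h, the libraries of Srxn1, Sqstm1, Nfe2l2 and Prdx1 overlapped with 0 h, and those of Gclc and Osgin1 lay below 0 h without a call by edgeR, Osgin1 being called by DESeq2.

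The libraries of 6 h differed among themselves more for some genes than for others. For 7 of the 10 genes M3 was the lowest of the 3, and the lower of M1 and M2 exceeded M3 by 3.42-fold in Srxn1, 2.10-fold in Hmox1 and 2.08-fold in Gclm, but by 1.11-fold in Txnrd1 and 1.02-fold in Osgin1. In Nqo1, also among the 7, M3 held 0 counts. The share of all genes with M3 lowest is not given here, so the count of 7 is not read as a trait of the set. In Gclc M3 was the highest. M1 and M3 carry the same isolation label, and in Prdx1 they were at 591 and 526 CPM against 252 CPM in M2. The part of the isolation in this spread was not tested. Within M2 and within M3, each with its own uncultured library, the log2 ratio of 6 h to 0 h was 6.97 and 4.97 for Hmox1, 3.51 and 3.66 for Txnrd1, and 3.55 and 3.30 for Gclm.

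Across the 19 libraries, which share times, depth and cell composition, the log2 levels of Hmox1 correlated with those of Txnrd1 (Pearson r = 0.96), Gclm (0.91) and Srxn1 (0.89), and with Nfe2l2 by 0.38. Nfe2l2 correlated with Sqstm1 (0.79) and Osgin1 (0.67) and inversely with Prdx1 (-0.61). Among 8572 other genes averaging 10 CPM or more, the 3 with the pattern most like that of Hmox1 included the tRNA ligases Gars (0.96) and Nars (0.95). For Txnrd1 it was Slc7a5, an amino acid transporter (0.98), then Inhba and Nars, and for Gclm it was Nop16 (0.97), Wdr5 and Npm1. The 3 most like Sqstm1 included Atf4 and Srsf2 (0.95 each), and Nfe2l2 was most like Slc15a3 (0.96), Jak2 and Stk40. Gclc was most like Gtpbp4 (0.94), Srxn1 like Fbl (0.91), Osgin1 like Gm42507 (0.89), Nqo1 like Mrps22 (0.80) and Prdx1 like Tmsb4x (0.78). These correlations describe the libraries and are given without a test.

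Beyond the 10 genes, 80 genes of the wider pathway were listed in 8 groups, of which 77 were tested. After 3 h, 10 of the 77 were called against 0 h (8 higher, 2 lower), where 5.58% of all genes were called in either direction. After 6 h the count was 14 (11 higher, 3 lower, against 11.3% of all genes), which DESeq2 gave as 24 and thinning to the smallest library as 21. The 11.3% is the share in edgeR's main fit, so the 24 and 21 cannot be set against it. It was 28 after 12 h (15 higher, 13 lower, 17.7%) and 29 after 18 h (16 higher, 13 lower, 15.9%). After 24 h it was 18 (12 higher, 6 lower, 9.51%) and after 96 h 17 (14 higher, 3 lower, 10.9%). The calls of the wider lists went in both directions at each time. Over all genes, 6.98% were called higher and 4.35% lower after 6 h, 8.60% and 9.10% after 12 h, and 5.83% and 5.03% after 96 h, and the lists below are to be read against these shares. They are shares of edgeR's calls. For the counts below by DESeq2 or at an unadjusted p, the share of all genes is not given here.

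**Figure D5:**
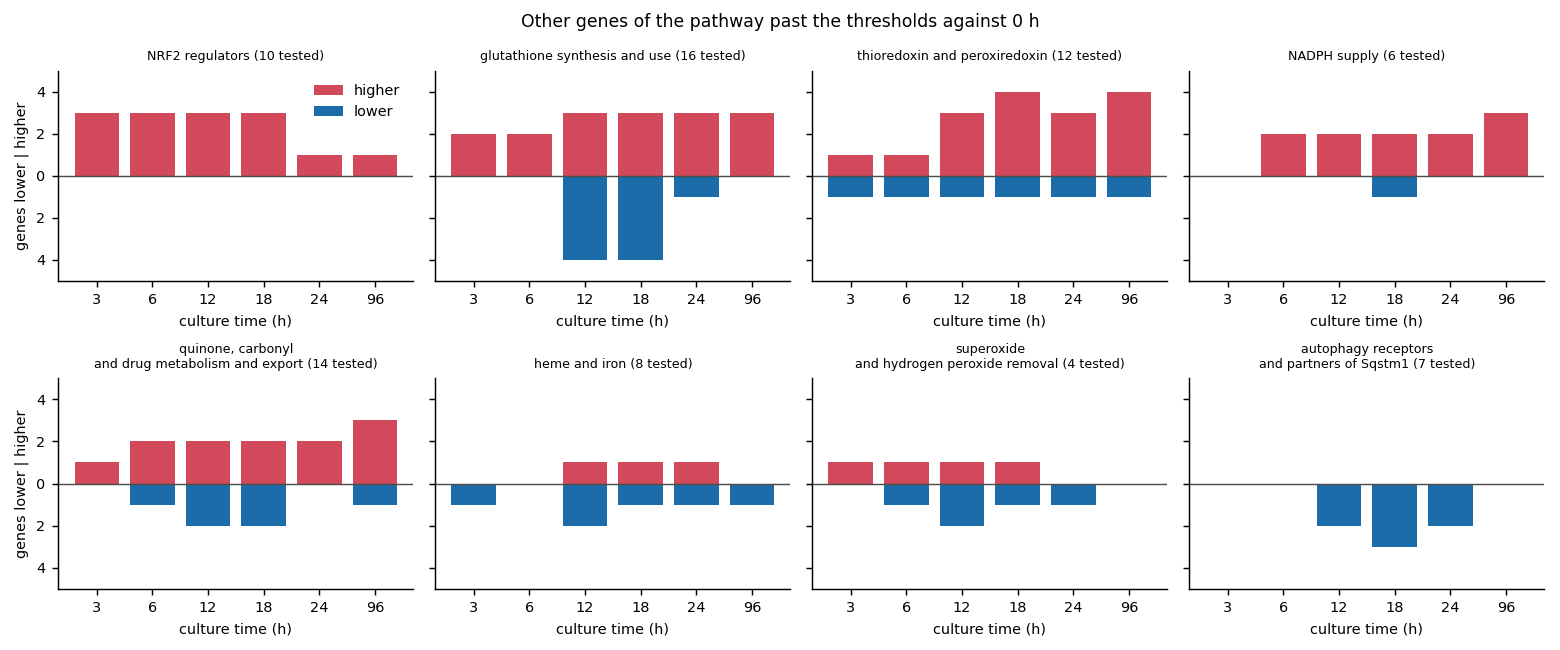
Number of genes past the thresholds against 0 h (bars above 0 for higher, below 0 for lower) in 8 lists of other genes of the pathway at each culture time (h). The 10 regulators show higher calls alone, 3 at each time from 3 to 18 h. Over these times the share of all genes called higher ranges from 4.19% (3 h) to 8.60% (12 h). The 7 autophagy genes show lower calls alone, 2 or 3 from 12 to 24 h. Over that span the share of all genes called lower ranges from 3.86% (24 h) to 9.10% (12 h). The difference between a list and all genes was not tested.

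Among the 10 regulators and partners of NRF2, 3 were called higher at 6 h and none lower, where 6.98% and 4.35% of all genes were, with a list median of 0.69 on the log2 scale against 0 for all genes. After 18 h edgeR called 3 of them and DESeq2 1. Maff, a small MAF partner, stood at 17.1 and 50.1 CPM at 0 h and at 317 to 406 CPM at 6 h (log2 3.36, SE 0.40, adjusted p = 4.59e-05). Mafk, another, was 6.36-fold higher (adjusted p = 0.000309), with 27.8 and 60.3 CPM at 0 h. The repressor Bach1 was also called at 6 h (log2 1.92, SE 0.60, adjusted p = 0.0587) and was 6.49-fold lower at 96 h than at 6 h (adjusted p = 0.00291). Keap1 stood at 75.2 and 113 CPM at 0 h and at 22.9 to 70.3 CPM at 6 h, without a call (log2 -1.14, SE 0.63, adjusted p = 0.301).

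The glutathione list (16 tested) gave 2 calls at 6 h, both higher, which was near the 11.3% of all genes called in either direction. DESeq2 called 7 in either direction at 6 h, and its share of all genes is not given here. At 12 h edgeR called 3 of the list higher and 4 lower. The list medians were -0.42 at 6 h and -0.22 at 12 h. Chac1, which breaks glutathione down, rose from 0.752 and 2.51 CPM at 0 h to 305 to 683 CPM at 6 h (adjusted p = 1.43e-06), and Glrx, glutaredoxin, from 4.76 and 9.04 CPM to 17.1 to 44.5 CPM (adjusted p = 0.0194). Slc7a11, the cystine importer, held 0.251 and 2.51 CPM at 0 h and 0.593 to 27.6 CPM at 6 h, not called (adjusted p = 0.13), and then 48.2 to 138 CPM at 12 h (adjusted p = 0.0114). At 96 h it was back at 0.192 to 1.35 CPM. Gsr, glutathione reductase, held 14.1 and 25.1 CPM at 0 h and 1.64 to 32.6 CPM at 6 h and was not called.

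In the thioredoxin and peroxiredoxin list (12 tested), 1 gene was called higher and 1 lower at 6 h, and 4 higher and 1 lower at 96 h, with medians of -0.62 and 0.17. The count at 6 h, 2 of 12, was near the 11.3% of all genes called in either direction. Sesn2, sestrin 2, held 0 and 2.51 CPM at 0 h and 65.6 to 136 CPM at 6 h (adjusted p = 0.000131). Txnip, the thioredoxin inhibitor, fell 5.42-fold at 6 h, from 556 and 805 CPM to 77.8 to 216 CPM (adjusted p = 0.00067), and 21.4-fold at 96 h. Txn1, thioredoxin, was just under the fold limit at 6 h (log2 1.00, SE 0.23, adjusted p = 0.00952), was called from 18 h on and at 96 h was 2.43-fold higher (log2 1.28, SE 0.23, adjusted p = 0.00161).

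Of the 6 NADPH suppliers, edgeR called 2 higher after 6 h and 3 after 96 h, with medians of 0.08 and 1.63. Pgd, of the pentose phosphate pathway, had 32.1 and 39.7 CPM at 0 h, 168 to 177 CPM at 6 h (log2 2.27, SE 0.20, adjusted p = 3.08e-06) and 146 to 167 CPM at 96 h. Taldo1, transaldolase, was 2.79-fold higher at 6 h and 12.0-fold at 24 h. Both were still called at 96 h. Me1, malic enzyme, chosen after its values were seen, was called at 96 h but at no earlier time (4.64-fold, adjusted p = 0.000531).

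Of the 14 tested genes of quinone, carbonyl and drug metabolism and export, 2 were called higher and 1 lower at 6 h, with a median of -0.53, and 3 higher and 1 lower at 96 h, with a median of 1.49. Esd, esterase D, held 0 and 49.2 CPM at 0 h and 417 to 543 CPM at 6 h (adjusted p = 0.0114). Abcc1, the exporter of glutathione conjugates, was 14.7-fold higher (log2 3.88, SE 0.68, adjusted p = 0.00135). Nqo2, the relative of Nqo1, fell from 33.1 and 58.2 CPM to at most 1.59 CPM at 6 h (adjusted p = 0.0226). Akr1b3, an aldose reductase likewise chosen after its values were seen, held 23.1 and 23.6 CPM at 0 h, 8.75 to 27.4 CPM at 6 h and 269.8 to 405 CPM at 96 h (adjusted p = 8.21e-05).

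Of the 4 genes for superoxide and hydrogen peroxide removal, Sod2, the mitochondrial dismutase, rose 4.63-fold at 6 h, from 129.6 and 146 CPM to 562 to 707 CPM (adjusted p = 0.000188), and Cat, catalase, was called lower, with 119 and 172 CPM at 0 h and 26.2 to 32.9 CPM at 6 h. Sod2 was back at 70.9 to 114 CPM at 96 h. By edgeR the 8 tested heme and iron genes gave 0 calls at 6 h, with a median of -0.55, against 3 at an unadjusted p under 0.05 and 3 by DESeq2. The 7 autophagy genes also gave 0 by edgeR, with a median of -0.18, against 1 at an unadjusted p under 0.05 and 0 by DESeq2. Hmox1 and Sqstm1, of the same processes, were both called. In those lists the calls at 12 h were 1 higher and 2 lower for heme and iron, and 2 lower for autophagy.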

How the data were processed

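RNASeq counts per gene were analysed in all 19 libraries. The authors deposited raw, whole-number read counts per Ensembl gene from QuantSeq 3' libraries; single-end reads were mapped to GRCm38 (mm10), with STAR and StringTie named in the submitters' processing notes, and the counting tool and its strand setting are not given in the sources used here. All 10 genes, the pathway lists and the marker lists were chosen with earlier results of these data known. Symbols and positions came from GENCODE M21, promoters from RefSeq (GRCm38.p6), and near-identical transcripts (at least 95% over 100 bases) from BLAST 2.17.0.

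Counts were filtered with filterByExpr by time (15138 genes), scaled by TMM and tested with edgeR 4.0.16 (R 4.3.3, limma 3.58.1) by the quasi-likelihood F test in 1 fit of 7 times without covariates; calls needed a Benjamini-Hochberg adjusted p under 0.1 and a fold over 2. SEs were the log2 fold change over the square root of F. The script was tested on simulated counts. Depth was 2073171 to 7690892 counts per library, with a floor of 3 counts, for counting error only. Log2 CPM for correlations used a prior count of 2. The genes named outside the 10 were, per list, the 2 highest and 2 lowest called at 6 h, with Keap1, Bach1, Slc7a11, Gsr and Txn1, unless stated. Alternatives were other scalings, no filter, DESeq2 1.42.0, a replicate block, the isolation date, separate fits, thinning, leaving out each library, and other thresholds. The replicate block paired libraries by M number, and each number carries 1 isolation label, which M1 and M3 share. Deviations from the group means correlated by 0.0143 on average between libraries of 1 number (51 pairs) and by -0.00704 otherwise (103 pairs). Some of the genes most like the 10 in pattern are not reported here. Plots were drawn with matplotlib 3.10.9.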

Additional observations from a re-analysis of the deposited data

How the results depend on the processing

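The 48 calls of the 10 genes were recomputed under 8 other processing settings and without each library, 1296 values in all: 1279 kept the call, 17 lost it, and none changed direction. Leaving out a library gave 898 of the kept and 14 of the lost values. Most of these fits left out a library of a time not compared, which leaves the libraries compared in place. All 14 losses came from leaving out a library of a time compared. With the replicate block, which pairs libraries of the same M number, all 48 calls held and 7 genes were called higher at 6 h, as without it; the same held with the isolation date. The pathway genes called at 6 h numbered 24 with DESeq2 against 14, and the cause was not tested. The genes called lower from 24 to 96 h numbered 1 to 5, against 4, when each library was left out in turn, with 1 without 24 h M2, where a lone library is assumed to vary like the other groups. Of 536 counts under alternatives, the other 534 stayed within 1.5 times the reported ones. At an adjusted p under 0.05, Gclm at 96 h against 6 h was lost too, leaving 7 of 8 genes. Fits of only the times compared lost 3 calls, Gclm at 3 h against 0 h (adjusted p = 0.16) and at 96 h against 6 h (0.136), and Gclc at 96 h against 24 h (0.163), and gained 7: Osgin1 at 3 and 6 h and Nqo1 at 12, 24 and 96 h against 0 h, Gclc at 6 h against 3 h (0.0706) and Srxn1 at 96 h against 24 h (0.0632). With library size alone Gclc at 24 h against 0 h (0.0884) was gained, with Gclc at 6 h against 3 h (0.099) and Srxn1 at 96 h against 24 h (0.0838). Scaling by DESeq2 size factors moved the median log2 fold change of all genes against 0 h by -0.08 to -0.24, and library size alone by -0.05 to 0.27; at 6 h the share of higher calls among all calls was 61.6% with TMM, 49.0% with size factors and 64.5% with library size alone, and at 24 h 59.4%, 48.2% and 71.5%, while all 48 calls of the 10 genes held under both. The pathway counts with the isolation date, thinning or a library left out were added after seeing the data. The depth of 0 h M3 limits genes with low counts.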
